A study of Mus musculus with 24 samples.

Results

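The genes described here are the 35 that encode the enzymes, carriers and regulators of mitochondrial and peroxisomal fatty acid oxidation, taken by gene symbol from a fixed list. All 35 were found, under their current symbols, among the 23309 gene rows of both expression tables. The RNA came from mouse macrophages labelled wild type or knockout for Tet2, whose protein turns 5-methylcytosine of DNA into oxidised forms. Bone marrow-derived macrophages (BMDM) of C57BL/6 mice were grown for 7 days in medium with L929-conditioned medium and M-CSF. They were then left untreated or given interleukin 4 (IL4), the cytokine of alternative activation, at 20 ng/ml for 10 or 24 h. There were 6 such groups with 2 libraries each, which the series' design text calls biological replicates. Tumour-associated macrophages (TAM) came from melanomas grown under the skin of male C57BL/6J mice aged 6 to 8 weeks, 4 weeks after injection of the line YUMM1.7. They were sorted for CD11b and F4/80, with 4 libraries per genotype. The TAM hosts of both groups carried Tet2 fl/fl. The wild-type hosts were LysMcre wt/wt and the labelled knockout hosts LysMcre +/wt, so deletion there is driven in the myeloid lineage, neutrophils included, and not in macrophages alone. For BMDM the labels give the genotype without the allele. A further 4 libraries of 5-hydroxymethylcytosine were not analysed here.

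Fatty acids are activated to acyl-CoA by long-chain acyl-CoA synthetases and enter mitochondria through the carnitine shuttle, where Cpt1a is the regulated step. Each turn of beta-oxidation then uses an acyl-CoA dehydrogenase, a hydratase, a hydroxyacyl-CoA dehydrogenase and a thiolase. Electrons leave the acyl-CoA dehydrogenases through the electron transfer flavoprotein. Peroxisomes shorten very long and branched chains with their own oxidases. Oxidation of fatty acids is a known metabolic feature of macrophages exposed to IL4, and the coactivator Ppargc1b is a known part of that programme.

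Promoters were taken from the RefSeq promoter table (GRCm38.p6, 250 bases before to 50 after the start site, strand of the gene), which held 29 promoters of 28 members. Crat, Acad9, Acaa2, Acat1, Decr1, Hsd17b4 and Ppargc1b had no entry. Etfb is shown because among members with an entry it rose most after 24 h of IL4 in wild-type BMDM, Ppard because it fell most, and Cpt1a as the regulated entry step. The Etfb window is chr7:43443822-43444121 (plus strand), that of Ppard chr17:28232504-28232803 (plus strand) and that of Cpt1a chr19:3323051-3323350 (plus strand). Capitals mark a motif match, and the Ppard window has none.
Etfb: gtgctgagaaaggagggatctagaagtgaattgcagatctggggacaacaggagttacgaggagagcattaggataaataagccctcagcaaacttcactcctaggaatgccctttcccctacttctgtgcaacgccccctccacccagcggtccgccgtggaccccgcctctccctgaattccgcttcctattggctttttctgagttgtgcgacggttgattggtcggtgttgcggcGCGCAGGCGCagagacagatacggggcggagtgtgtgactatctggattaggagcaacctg
Ppard: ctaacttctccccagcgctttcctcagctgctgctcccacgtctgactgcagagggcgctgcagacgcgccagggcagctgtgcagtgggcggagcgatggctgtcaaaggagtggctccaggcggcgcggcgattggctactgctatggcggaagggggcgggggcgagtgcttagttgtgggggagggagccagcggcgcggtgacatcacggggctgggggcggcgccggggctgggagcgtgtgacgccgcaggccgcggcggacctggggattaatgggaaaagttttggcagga
Cpt1a: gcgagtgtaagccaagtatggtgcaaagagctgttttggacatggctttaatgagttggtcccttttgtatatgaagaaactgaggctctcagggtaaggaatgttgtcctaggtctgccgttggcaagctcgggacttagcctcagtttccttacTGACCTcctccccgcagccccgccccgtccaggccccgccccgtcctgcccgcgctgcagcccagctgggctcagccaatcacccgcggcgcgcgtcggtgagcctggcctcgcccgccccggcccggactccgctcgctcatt
The match in Etfb is to a motif of the factor NRF1, GCGCA and GCGC with 1 base between them, and starts 11 bases before the start site. The match in Cpt1a is the nuclear receptor half-site AGGTCA, read on the minus strand, 94 bases before the start site. Hadha is shown as well, chosen after its values were seen, because it and Hadhb encode the alpha and beta subunits of the mitochondrial trifunctional protein and lie head to head, with start sites 273 bases apart. Its window is chr5:30154931-30155230 (minus strand) and holds none of the motifs.
Hadha: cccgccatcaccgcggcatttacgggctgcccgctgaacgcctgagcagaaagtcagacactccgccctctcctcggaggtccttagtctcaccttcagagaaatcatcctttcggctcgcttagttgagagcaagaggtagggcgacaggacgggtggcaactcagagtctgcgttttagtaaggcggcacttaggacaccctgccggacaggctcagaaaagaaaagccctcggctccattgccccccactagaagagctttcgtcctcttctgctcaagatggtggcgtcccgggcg
On both strands, the NRF1 motif was found in 3 of the 29 member promoters (Etfb, Etfdh and Ppara) and in 4.6% of all 32851 promoters of the table. AGGTCA was found in 4 of 29 (Acadm, Acadvl, Cpt1a and Echs1) and in 16.3% of all. The STAT6 motif, TTC and GAA with 4 bases between them, was in none of the 29 and in 6.95% of all. The repeat of PPAR dimers, AGGNCA 2 times with 1 base between, and the site TCAAGGTCA of oestrogen-related receptors, both of which overlap the half-site pattern, were in none of the 29 and in 0.381% and 0.423% of all. These matches describe letters in a short window and not binding.

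Levels are FPKM, fragments scaled by transcript length and by the size of the library, which can be compared between genes. Differences are of log2(FPKM + 1), with the standard error (SE) of the limma fit, and understate the change of genes with low levels. Testing required 1 FPKM in at least 2 BMDM or 4 TAM libraries. A gene is said to rise or fall where limma's p was under 0.05 after Benjamini-Hochberg adjustment across every tested gene. Of the 35 members, 32 were tested in BMDM and 31 in TAM. Ppara and Ppargc1a, regulators known from liver and muscle, were at or below 0.0173 FPKM in every BMDM library and at or below 0.00995 FPKM in every TAM library. The peroxisomal bifunctional enzyme Ehhadh ranged from 0.203 to 0.732 FPKM in BMDM and from 0.438 to 1.39 FPKM in TAM. The coactivator Ppargc1b was tested in BMDM but not in TAM, where it ranged from 0.251 to 1.30 FPKM.

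Depth is unknown, since the tables hold no counts. Total FPKM was 365140 to 557218 in BMDM, lowest in untreated wild-type replicate 2, and 338014 to 464833 in TAM, and the commonest step between low values gave no clear relative depth. Replicates correlated at 0.982 to 0.993 in BMDM and 0.869 to 0.984 in TAM (Pearson's r across genes, log2 scale). All 7 macrophage markers were expressed in every library. Tet2 did not separate the genotypes. Its log2 difference was -0.18 at 0 h, -0.17 at 10 h and 0.16 at 24 h in BMDM and 0.36 in TAM, none past the threshold, so the groups are called labelled knockout. Which exons of Tet2 were deleted is not given in the sources used here. All p-values measure the spread between these libraries.

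IL4 moved most of the pathway in wild-type BMDM by 24 h. Of the 32 members tested, 18 rose and 5 fell, where 50.0% of all 10510 genes tested passed (29.7% rose and 20.3% fell). The median log2 difference was 0.45 over the members and 0.06 over all genes tested. The summed level of the 35 members was 597 and 495 FPKM in the untreated wild-type libraries, 676 and 663 FPKM at 10 h and 764 and 813 FPKM at 24 h. Total FPKM moved with this sum, and as a share of it the members were 0.134% and 0.136% untreated, 0.140% and 0.137% at 10 h and 0.164% and 0.146% at 24 h. The sum and the share were both higher in every treated library than in the untreated ones, but at 10 h the share was only slightly so. At 10 h, 13 members rose and 6 fell (42.4% of all genes passed, 28.2% rising and 14.2% falling), with a median of 0.13 over the members and 0.09 over all genes. With 2 libraries against 2, groups without overlap were common: 72.2% of all genes at 10 h and 66.1% at 24 h in wild type, 77.7% and 79.4% in the labelled knockout, and 63.3% and 69.9% between 10 and 24 h. In bulk RNA, a change in the share of cells that hold a transcript and a change in RNA per cell cannot be told apart.

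Of the members, 11 rose at both times in wild type (Crat, Acsl5, Acadm, Hadha, Hadhb, Acat1, Decr1, Hsd17b4, Etfa, Etfb and Ppargc1b) and 6 passed at 24 h and not at 10 h (Slc25a20, Acadvl, Echs1, Acaa2, Acaa1a and Etfdh). Another 4 fell at both times (Cpt1a, Acsl1, Acox3 and Pnpla2), and Acsl3 fell and then rose. Shares of all genes with such joint patterns, here or over both genotypes below, are not given. Whether the patterns are more common among the members than among all genes was not tested. With each library left out in turn, 17 of the 23 calls at 24 h and 11 of the 19 at 10 h held throughout. Fitted on only the 4 libraries compared, 16 calls held at 24 h and 13 at 10 h. The 10 h count was 11 without 10 h replicate 1. Under quantile normalization, which shifts the median of all genes at 10 h by -0.11, the 10 h split was 8 rising and 9 falling.

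**Figure D1:**
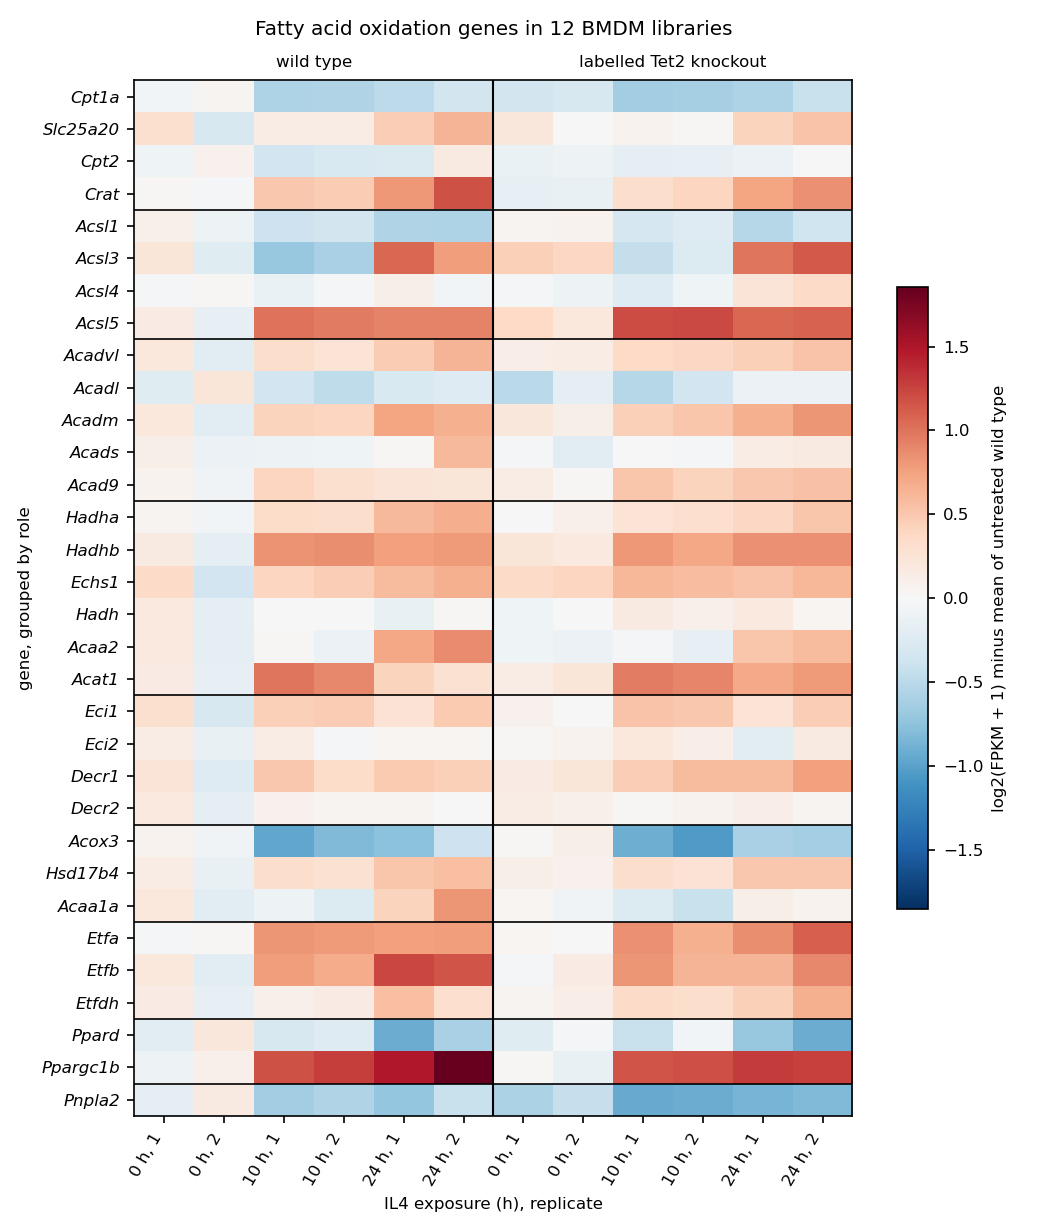
Levels of the 32 tested members (rows, grouped by role) in the 12 BMDM libraries (columns), as log2(FPKM + 1) minus the mean of the 2 untreated wild-type libraries. Red rows such as Ppargc1b, Etfb and Acsl5 are higher after IL4 in both genotypes, and the blue row Acox3 is lower in both. Pnpla2 is blue after IL4 in wild type, and in the labelled knockout it is blue in the untreated libraries as well. Untreated wild-type replicate 2 is paler or bluer than replicate 1 in many rows.

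The carnitine shuttle split at its entry step. Cpt1a, which makes acylcarnitine at the outer mitochondrial membrane, had 19.4 and 20.8 FPKM in untreated wild type, 13.2 and 13.3 FPKM at 10 h and 14.1 and 15.6 FPKM at 24 h. All 4 treated wild-type libraries lay below both untreated ones. The fall was -0.56 ± 0.09 at 10 h (adjusted p = 0.000679) and -0.41 ± 0.09 at 24 h (adjusted p = 0.00361). On only the 4 libraries compared, the 24 h value no longer passed (adjusted p = 0.123). Labelled knockout libraries had 15.7 and 16.2 FPKM untreated, 12.5 and 12.8 FPKM at 10 h and 13.3 and 14.8 FPKM at 24 h. There the 10 h fall was -0.31 ± 0.09 (adjusted p = 0.0206, and 0.0780 to 0.119 without any 1 of its 4 libraries), and the 24 h difference was -0.17 ± 0.09 (adjusted p = 0.153). Between genotypes the untreated difference was -0.32 ± 0.09 (adjusted p = 0.118).

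Crat, which exchanges acetyl groups between CoA and carnitine, rose at both times. It had 10.2 and 9.86 FPKM in untreated wild type, 14.6 and 14.3 FPKM at 10 h and 18.3 and 24.0 FPKM at 24 h. Values in the labelled knockout were 8.93 and 8.98, then 12.8 and 13.5, then 17.3 and 18.7 FPKM. The groups of the 3 times did not overlap in either genotype. The 24 h rise was 0.99 ± 0.12 in wild type (adjusted p = 5.79e-05) and 0.93 ± 0.12 in the labelled knockout (adjusted p = 9.3e-05). The step from 10 to 24 h was lost in wild type without either 10 h library (adjusted p = 0.0523 and 0.0674), and in the labelled knockout without any 1 of its 4 libraries (adjusted p = 0.0624 to 0.140). Slc25a20, the carrier of acylcarnitines across the inner membrane, had 13.6 and 8.57 FPKM untreated and 15.1 and 17.3 FPKM at 24 h in wild type (0.54 ± 0.17, adjusted p = 0.0202). That rise was 0.24 without untreated replicate 2 (adjusted p = 0.134) and 0.45 without 24 h replicate 2 (adjusted p = 0.0944). Cpt2, which rebuilds acyl-CoA inside, stayed between 2.62 and 4.21 FPKM in all 12 libraries and did not pass in any comparison.

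The 4 long-chain acyl-CoA synthetases each took a different course. Acsl5, a synthetase of mitochondria and the endoplasmic reticulum, had 26.7 and 21.4 FPKM in untreated wild type, 48.9 and 47.7 FPKM at 10 h and 45.9 in both libraries at 24 h. It rose by 0.99 ± 0.11 at 10 h (adjusted p = 6.49e-05) and 0.91 ± 0.11 at 24 h (adjusted p = 8.21e-05), a step reached by 10 h. Acsl1, the main synthetase of oxidative tissues, had 9.33 and 8.12 FPKM untreated, 6.47 and 6.66 FPKM at 10 h and 5.62 and 5.53 FPKM at 24 h. It fell by 0.36 ± 0.09 at 10 h (adjusted p = 0.0106, and 0.0734 without 10 h replicate 1) and by 0.56 ± 0.09 at 24 h (adjusted p = 0.00066).

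Acsl3, the synthetase of lipid droplets and the endoplasmic reticulum, reversed between the times. In wild type it had 3.77 and 2.50 FPKM untreated, 1.52 and 1.70 FPKM at 10 h and 7.59 and 5.98 FPKM at 24 h. Values in the labelled knockout were 4.57 and 4.34, then 2.00 and 2.43, then 7.15 and 7.95 FPKM. In both genotypes the 10 h libraries were the lowest and the 24 h libraries the highest, with no overlap. Acsl3 fell by 0.65 ± 0.15 at 10 h in wild type (adjusted p = 0.00618, and by 0.43 without untreated replicate 1) and stood 1.57 ± 0.15 higher at 24 h than at 10 h (adjusted p = 8.56e-05). The same step was 1.41 ± 0.15 in the labelled knockout (adjusted p = 0.000121). Acsl4, which prefers arachidonate, ranged from 12.8 to 19.7 FPKM over the 12 libraries and passed in the labelled knockout at 24 h, with 18.3 and 19.7 FPKM against 15.1 and 14.3 FPKM (0.35 ± 0.10, adjusted p = 0.0134). It was also 0.46 ± 0.10 higher there at 24 h than at 10 h (adjusted p = 0.00658). The first call was lost without untreated replicate 2 (adjusted p = 0.0965) or 24 h replicate 2 (adjusted p = 0.102), the second without 10 h replicate 1 (adjusted p = 0.0766) or 24 h replicate 2 (adjusted p = 0.0651), and the difference between the genotypes' responses was 0.33 ± 0.14 (adjusted p = 0.249).

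**Figure D2:**
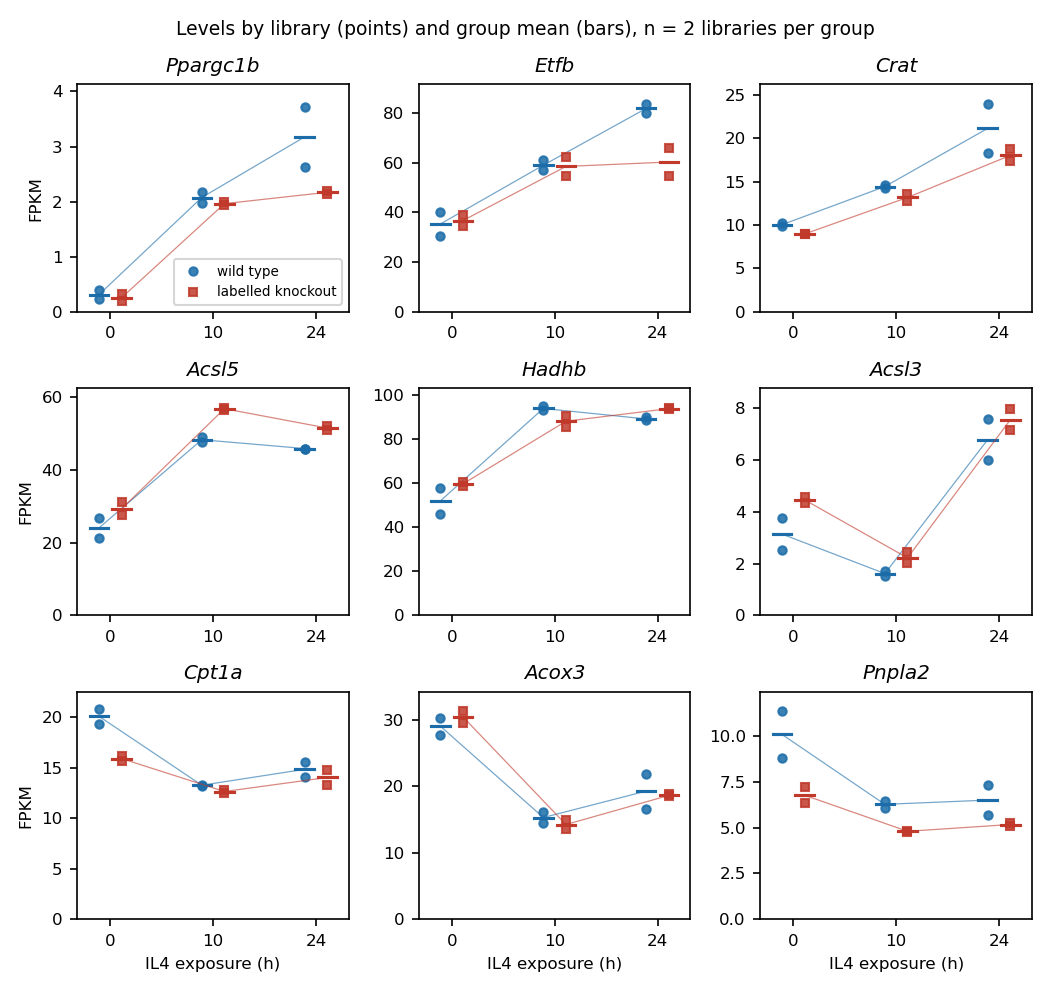
FPKM of 9 members by hours of IL4 (0, 10 and 24 h), with each library as a point, group means as bars joined by lines, wild type as circles and labelled knockout as squares, and every y axis starting at 0. Ppargc1b, Etfb, Crat, Acsl5 and Hadhb are higher in all treated libraries, and Acsl3 is lowest at 10 h and highest at 24 h. Pnpla2 values are lower in the labelled knockout at each time, a difference that passed averaged over the times and not at any single time.

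Acyl-CoA dehydrogenases open each turn of oxidation and differ in chain length. Acadm, for medium chains, had 27.4 and 20.8 FPKM in untreated wild type, 32.2 and 31.8 FPKM at 10 h and 40.1 and 38.2 FPKM at 24 h. All treated libraries lay above both untreated ones, and the 24 h rise was 0.69 ± 0.13 (adjusted p = 0.00118). Labelled knockout Acadm had 27.9 and 25.8 FPKM untreated and 38.1 and 43.0 FPKM at 24 h (0.57 ± 0.13, adjusted p = 0.00378). Acadvl, for very long chains, had 23.7 and 17.9 FPKM untreated and 28.9 and 32.3 FPKM at 24 h in wild type (0.55 ± 0.12, adjusted p = 0.00396, and 0.36 without untreated replicate 2). Its rise in the labelled knockout was 0.35 ± 0.12 (adjusted p = 0.0409, and 0.0848 to 0.184 without any 1 of the 4 libraries).

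The other dehydrogenases did not pass at 24 h in wild type. Acad9, also an assembly factor of respiratory complex I, had 5.16 and 4.65 FPKM untreated and 6.80 and 6.24 FPKM at 10 h in wild type (0.35 ± 0.09, adjusted p = 0.0109). That call was lost without untreated replicate 2 (adjusted p = 0.053) or 10 h replicate 1 (adjusted p = 0.0979). At 24 h in the labelled knockout, Acad9 had 7.37 and 7.55 FPKM against 5.50 and 4.98 FPKM untreated (0.44 ± 0.09, adjusted p = 0.00274). Acadl, for long chains, had 11.4 and 15.7 FPKM untreated and 10.3 and 9.43 FPKM at 10 h in wild type, a fall of -0.41 ± 0.15 at the edge of the threshold (adjusted p = 0.0482). Without untreated replicate 2 it was -0.19 (adjusted p = 0.329), and without replicate 1 or 2 of 10 h the adjusted p was 0.103 or 0.201. Acads, for short chains, ranged from 14.5 to 26.0 FPKM and did not pass.

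The enzymes that complete the turn mostly rose. At 24 h in wild type, 5 of the 6 hydratase, dehydrogenase and thiolase genes rose and none fell. Of all genes tested, 29.7% rose and 20.3% fell. Hadhb, the thiolase subunit of the trifunctional protein, was the member with the highest level. It had 57.8 and 46.1 FPKM untreated, 92.9 and 94.7 FPKM at 10 h and 88.3 and 89.7 FPKM at 24 h in wild type. Hadha, its partner from the promoter shown above, had 30.8 and 28.7, then 37.9 and 37.7, then 45.7 and 48.0 FPKM. Both were above the untreated libraries in every treated library, Hadhb by 0.85 ± 0.11 at 10 h (adjusted p = 0.000174) and 0.78 ± 0.11 at 24 h (adjusted p = 0.000249), and Hadha by 0.34 ± 0.09 (adjusted p = 0.0141) and 0.64 ± 0.09 (adjusted p = 0.000269). Between 10 and 24 h Hadha rose further, by 0.30 ± 0.09 (adjusted p = 0.0358), while Hadhb differed by -0.07 ± 0.11 (adjusted p = 0.667). These divergent neighbours thus differed in their time course in the values, and the difference between the genes was not tested. The 10 h call of Hadha was lost without either 10 h library (adjusted p = 0.0848 and 0.072), and its call between 10 and 24 h without either 10 h library or 24 h replicate 2 (adjusted p = 0.0892 to 0.174).

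Acaa2 and Acat1 are thiolases that differed in timing. Acaa2, the medium-chain thiolase, had 26.3 and 20.2 FPKM in untreated wild type and 23.5 and 21.3 FPKM at 10 h, and 38.6 and 43.2 FPKM at 24 h. It rose by 0.84 ± 0.13 between 10 and 24 h (adjusted p = 0.00106), and in the labelled knockout by 0.63 ± 0.13 (adjusted p = 0.00473), from 22.8 and 20.7 to 33.2 and 35.3 FPKM. Acat1, which splits acetoacetyl-CoA, had 12.5 and 9.99 FPKM untreated, 23.3 and 21.6 FPKM at 10 h and 15.2 and 13.8 FPKM at 24 h. It rose by 0.94 ± 0.11 by 10 h (adjusted p = 8.39e-05) and fell by 0.59 ± 0.11 from 10 to 24 h (adjusted p = 0.00342). Labelled knockout Acat1 had 12.4 and 13.3, then 22.4 and 21.8, then 18.7 and 20.1 FPKM, and the change from 10 to 24 h was -0.18 ± 0.11 (adjusted p = 0.272). The 24 h rise of Acat1 in wild type, 0.35 ± 0.11 (adjusted p = 0.0229), was 0.20 without untreated replicate 2 (adjusted p = 0.136) and 0.28 without 24 h replicate 1 (adjusted p = 0.0952).

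Echs1, the short-chain hydratase, had 34.8 and 21.0 FPKM in untreated wild type, and 41.2 and 43.1 FPKM at 24 h (0.62 ± 0.18, adjusted p = 0.0139). The 2 untreated libraries differed more from each other than replicate 1 did from the treated ones. Without replicate 1 the rise was 0.97, without replicate 2 it was 0.27 (adjusted p = 0.0337), and without 24 h replicate 2 the call was lost (adjusted p = 0.053). Hadh, the short-chain hydroxyacyl-CoA dehydrogenase, ranged from 10.7 to 14.1 FPKM over the 12 libraries and did not pass.

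Among the 4 enzymes for unsaturated chains, the mitochondrial pair moved and the peroxisomal pair did not pass. Decr1, the mitochondrial dienoyl-CoA reductase, had 6.72 and 4.50 FPKM untreated, 8.26 and 7.27 FPKM at 10 h and 8.11 and 7.89 FPKM at 24 h in wild type. Its 24 h rise was 0.47 ± 0.14 (adjusted p = 0.0213). Without untreated replicate 2 it was 0.22 (adjusted p = 0.153), without replicate 1 it was 0.71, and without either 24 h library the call was lost (adjusted p = 0.0667 and 0.0514). Eci1, the mitochondrial enoyl-CoA isomerase, had 11.5 and 7.21 FPKM untreated and 12.7 and 13.0 FPKM at 10 h (0.46 ± 0.17, adjusted p = 0.0486, and 0.15 without untreated replicate 2, adjusted p = 0.354). Eci2 stayed between 10.4 and 14.1 FPKM and Decr2 between 8.69 and 11.6 FPKM in all 12 BMDM libraries. A difference between the mitochondrial and the peroxisomal pair was not tested.

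Peroxisomal oxidation went in both directions. Acox3, the oxidase of branched-chain acyl-CoA, had 30.4 and 27.8 FPKM in untreated wild type, 14.5 and 16.1 FPKM at 10 h and 16.7 and 21.9 FPKM at 24 h. Values in the labelled knockout were 29.5 and 31.4, then 15.0 and 13.5, then 18.8 and 18.5 FPKM. All 8 treated libraries lay below all 4 untreated ones. The fall at 10 h was -0.88 ± 0.13 in wild type (adjusted p = 0.000304) and -1.05 ± 0.13 in the labelled knockout (adjusted p = 9.97e-05), and at 24 h -0.58 ± 0.13 (adjusted p = 0.00338) and -0.68 ± 0.13 (adjusted p = 0.0014). Hsd17b4, the D-bifunctional protein, rose instead, from 41.0 and 34.0 to 53.9 and 55.3 FPKM at 24 h in wild type (0.54 ± 0.10, adjusted p = 0.00145). Acaa1a, the peroxisomal thiolase, had 44.0 and 33.5 FPKM untreated, 36.1 and 32.0 FPKM at 10 h and 51.7 and 68.5 FPKM at 24 h in wild type. It passed at 24 h (0.62 ± 0.16, adjusted p = 0.00762), but not without untreated replicate 2 (0.43, adjusted p = 0.0623) or 24 h replicate 2 (0.42, adjusted p = 0.0535). Labelled knockout Acaa1a had 39.5 and 36.6 FPKM untreated and 41.5 and 40.3 FPKM at 24 h (0.10 ± 0.16, adjusted p = 0.635). The responses of Acaa1a in the genotypes differed by -0.52 ± 0.22 (adjusted p = 0.255).

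All 3 genes of electron transfer rose at 24 h in both genotypes, where 29.7% of all genes rose in wild type and 26.5% in the labelled knockout. Etfb, the beta subunit of the flavoprotein and the gene whose promoter above holds the NRF1 motif, had 40.2 and 30.6 FPKM untreated, 60.9 and 57.2 FPKM at 10 h and 83.7 and 80.2 FPKM at 24 h in wild type. Labelled knockout Etfb had 34.6 and 38.9, then 62.3 and 54.8, then 54.8 and 65.8 FPKM. The 10 and 24 h libraries lay apart in wild type and overlapped in the labelled knockout. The wild-type step from 10 to 24 h was 0.47, and its call was lost without any 1 of its 4 libraries (adjusted p = 0.0644 to 0.185). The 24 h rise was 1.20 ± 0.14 in wild type (adjusted p = 7.05e-05) and 0.70 ± 0.14 in the labelled knockout (adjusted p = 0.00264). The difference of these responses, -0.51 ± 0.20, did not pass (adjusted p = 0.228), and it did without untreated wild-type replicate 1 (-0.70, adjusted p = 0.0382). Etfa, the alpha subunit, had 9.53 and 9.91 FPKM untreated, 17.8 and 17.5 FPKM at 10 h and 17.1 and 17.4 FPKM at 24 h in wild type (0.77 ± 0.10 at 24 h, adjusted p = 0.000172). Labelled knockout Etfa reached 18.4 and 22.2 FPKM at 24 h (0.97 ± 0.10, adjusted p = 3.51e-05). Etfdh, which passes the electrons to ubiquinone, rose from 15.1 and 12 to 20.4 and 17.0 FPKM at 24 h in wild type (0.44 ± 0.13, adjusted p = 0.0154). This call was lost without untreated replicate 2 (0.28) or 24 h replicate 1 (0.31). Labelled knockout Etfdh rose by 0.47 at 24 h, and that call was lost without untreated replicate 1 (0.43) or 24 h replicate 2 (0.36).

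Among the regulators, the coactivator Ppargc1b had the largest change of all members. It had 0.229 and 0.387 FPKM in untreated wild type, 1.97 and 2.18 FPKM at 10 h and 2.63 and 3.72 FPKM at 24 h. Values in the labelled knockout were 0.320 and 0.185, then 1.93 and 1.99, then 2.20 and 2.14 FPKM. Every treated library was far above every untreated one. The untreated libraries were all under 1 FPKM, so Ppargc1b met the filter for testing only through the treated groups, where it was high. The 24 h rise was 1.66 ± 0.13 in wild type (adjusted p = 3.18e-06) and 1.34 ± 0.13 in the labelled knockout (adjusted p = 1.54e-05). With a pseudocount of 0.1 FPKM, which shrinks low values less, these were 3.01 and 2.71. Ppard, the nuclear receptor PPAR delta, fell at 24 h from 1.24 and 1.99 to 0.370 and 0.700 FPKM in wild type (-0.76 ± 0.18, adjusted p = 0.0047, and -1.45 with a pseudocount of 0.1). In the labelled knockout it fell from 1.23 and 1.55 to 0.598 and 0.366 FPKM (-0.69 ± 0.18, adjusted p = 0.00896, and 0.0689 or 0.0744 without untreated or 24 h replicate 2).

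Pnpla2, the adipose triglyceride lipase that frees fatty acids from stored fat, fell under IL4 and was lower in the labelled knockout. Wild type had 8.80 and 11.4 FPKM untreated, 6.07 and 6.46 FPKM at 10 h and 5.68 and 7.31 FPKM at 24 h. The labelled knockout had 6.34 and 7.19, then 4.77 and 4.82, then 5.09 and 5.24 FPKM. The labelled knockout pair was the lower one at each of the 3 times, with no overlap. That difference did not pass at any single time, and groups did not overlap for 42.5% to 51.6% of all genes by time. In wild type the fall was -0.60 ± 0.13 at 10 h (adjusted p = 0.00448) and -0.56 ± 0.13 at 24 h (adjusted p = 0.00522). In the labelled knockout it was -0.42 ± 0.13 at 10 h (adjusted p = 0.0279, and 0.0533 to 0.169 without any 1 of the 4 libraries) and -0.33 ± 0.13 at 24 h (adjusted p = 0.0651).

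In the labelled knockout, 17 members rose and 3 fell at 24 h (43.7% of all genes passed, 26.5% rising and 17.1% falling), with a median of 0.35 against 0.07 over all genes. At 10 h, 9 rose and 5 fell (38.8% of all genes, 24.2% rising and 14.6% falling), and this count was 22 when only the 4 libraries compared were fitted. It was 9 without untreated replicate 2 or 10 h replicate 1. Crat, Acsl5, Hadhb, Acat1, Etfa, Etfb and Ppargc1b rose at both times in both genotypes, and Acsl1 and Acox3 fell at both times in both. Cpt2, Acads, Hadh, Eci2 and Decr2 passed in none of these 4 comparisons. From 10 to 24 h, 7 members rose and 1 fell in wild type (25.9% of all genes passed, 11.6% rising and 14.3% falling), and 4 rose and 1 fell in the labelled knockout (23.0%, 12.1% rising and 10.9% falling). The wild-type count was 4 without either 10 h library, and the labelled knockout count 2 to 3 without any 1 of its 4 libraries.

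**Figure D3:**
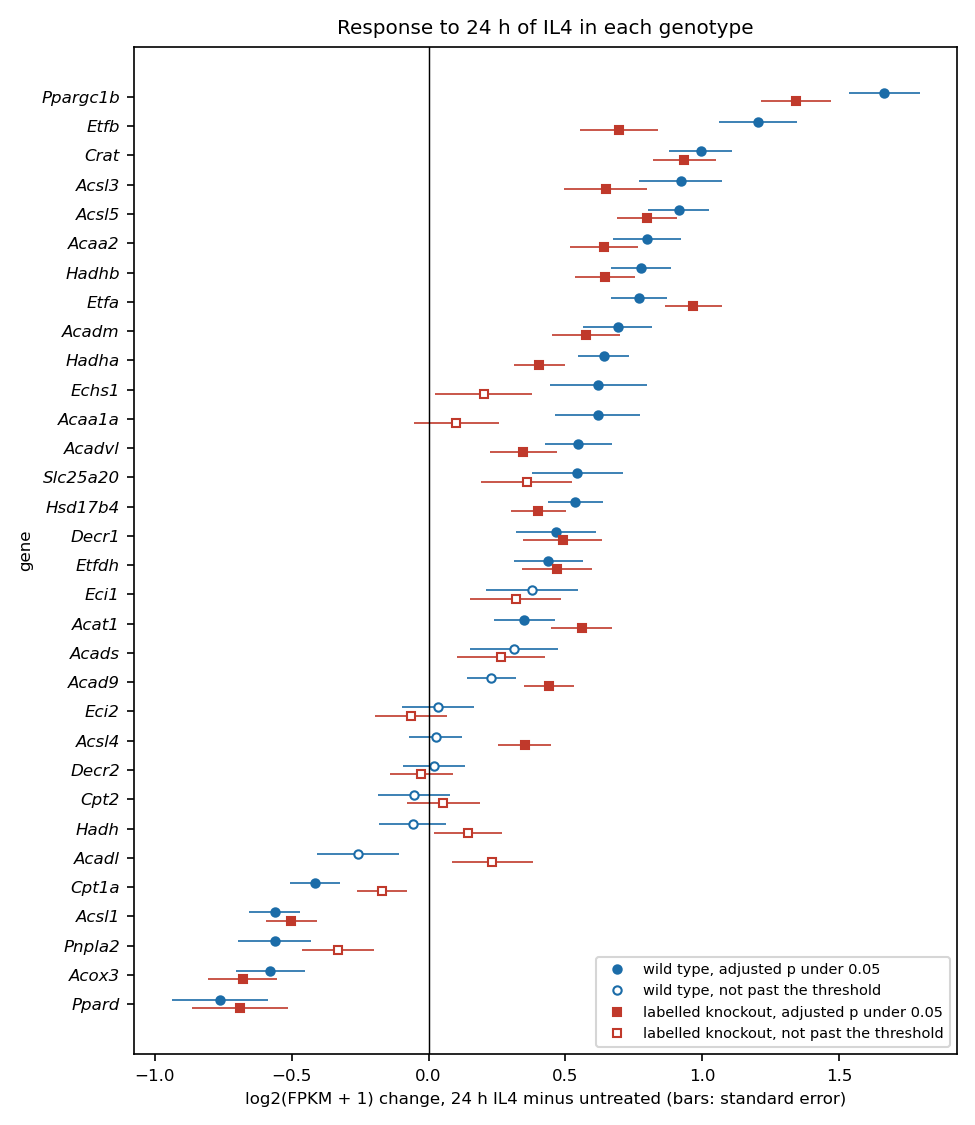
Log2(FPKM + 1) difference between 24 h of IL4 and untreated for the 32 tested members, with wild type as circles, labelled knockout as squares, bars for the standard error and filled symbols for an adjusted p under 0.05. Ppargc1b leads with 1.66 in wild type and 1.34 in the labelled knockout, and Ppard, Acox3 and Acsl1 lie below 0 in both. Ppargc1b met the filter for testing only through its treated libraries.

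Calls between the genotype labels were few, in this gene set as over all genes. With 2 libraries per group, a difference that was not called need not be small. No member passed between labelled knockout and wild type at 0, 10 or 24 h (limma), where 2.70%, 2.84% and 7.43% of all genes did. Wild-type and labelled knockout libraries were fully apart for 8, 18 and 18 of the 32 members, against 42.5%, 51.6% and 50.5% of all genes. Averaged over the times, Pnpla2 was the 1 member that passed (9.94% of all genes did, with 2.88% falling), at -0.37 ± 0.08 (adjusted p = 0.0123). It held with each library left out in turn, with an adjusted p of at most 0.0469. At 24 h the largest differences that missed the threshold were Acaa1a (-0.53 ± 0.16, adjusted p = 0.0655), Etfb (-0.44 ± 0.14, adjusted p = 0.0862), Ppargc1b (-0.39 ± 0.13, adjusted p = 0.0944) and Acat1 (0.39 ± 0.11, adjusted p = 0.0571). Acaa1a, Etfb and Ppargc1b were lower in both labelled knockout libraries than in both wild-type ones, and Acat1 was higher.

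These counts turned on single wild-type libraries. More members passed at 0 h and in the average over times without untreated wild-type replicate 1. More also passed at 24 h and in the average without 24 h wild-type replicate 1. Each refit leaves 1 library in a wild-type arm, and the share of all genes passing in it is not given here. These added calls are therefore not read as a result about the members. The IL4 responses of the genotypes did not differ past the threshold for any member at 10 h (0.0951% of all genes) or 24 h (0.295%). Some did at 24 h without untreated wild-type replicate 1, with the same limit. Fibroblast markers moved with the label: their summed level was 2.41 to 4.97 FPKM in the wild-type BMDM libraries and 9.24 to 22.9 FPKM in the labelled knockout ones, with 3 of 7 tested and all 3 higher in the labelled knockout at each time. Neutrophil markers (4 of 7 tested) summed to 148 to 150 FPKM in wild type and 67.0 to 102 FPKM in the labelled knockout at 24 h, with 2 lower in the labelled knockout, from 95.0 to 131 FPKM and 122 to 134 FPKM untreated. Summed B cell markers were 0.420 to 1.60 FPKM in wild type and 2.10 to 3.18 FPKM in the labelled knockout, with 4 of 5 under 1 FPKM in every BMDM library. Summed endothelial markers were also higher in the labelled knockout at each time, with 4.60 to 5.06 FPKM against 3.03 FPKM at 10 h. The part of any of these cells in the genotype differences above, or of neutrophils in the IL4 responses, was not tested.

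Of 7 adipocyte markers, 6 stayed under 1 FPKM in every BMDM library and Lep was at 0 in all 12. The other, Adipoq, rose from 0.0217 ± 0.0306 to 30.7 ± 3.60 FPKM (SD, n = 2) at 24 h in wild type. Summed adipocyte markers at 24 h were 28.2 to 33.4 FPKM in wild type and 17.2 to 17.5 FPKM in the labelled knockout. At 10 h they were 19.8 to 21.1 FPKM and 14.7 to 15.8 FPKM. The summed macrophage markers were 1503 to 1670 FPKM in untreated wild type and 1219 to 1488 FPKM at 24 h. In each genotype 4 of the 7 fell at 24 h, where 20.3% of all genes fell in wild type and 17.1% in the labelled knockout. The part of the adipocyte or macrophage markers in the IL4 response or in the genotype differences was not tested.

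In TAM no member passed between labelled knockout and wild type (limma, 31 tested), where 0.101% of all 9897 genes tested did. The median difference was -0.06 over the members and 0.09 over all genes tested, and the summed level of the members ran from 477 to 500 FPKM in wild type and from 487 to 502 FPKM in the labelled knockout. Groups did not overlap for 5 members, 2 higher and 3 lower in the labelled knockout, against 12.4% of all genes tested (9.13% higher and 3.27% lower). Levels cannot be set beside those of BMDM, since TAM libraries were made from polyadenylated RNA and BMDM libraries by ribosomal depletion.

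The 2 higher members were Acsl5 and Etfa. Acsl5 had 41.6, 44.4, 43.8 and 31.4 FPKM in wild-type libraries 1, 2, 7 and 8, and 56.7, 50.3, 66.6 and 61.5 FPKM in labelled knockout libraries 3 to 6. The lowest labelled knockout library lay above the highest wild-type one, with a difference of 0.54 ± 0.15 (adjusted p = 0.169). Etfa had 27.7, 28.0, 25.9 and 28.7 FPKM in wild type and 33.3, 34.3, 35 and 30.7 FPKM in the labelled knockout (0.26 ± 0.10, adjusted p = 0.253).

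The 3 lower members were Echs1, Hadh and Acat1, all of the hydratase, dehydrogenase and thiolase steps. Echs1 had 25.5, 25.4, 30.0 and 30.0 FPKM in wild type and 20.8, 22.7, 13.4 and 16.2 FPKM in the labelled knockout (-0.60 ± 0.17, adjusted p = 0.171). Hadh had 10.5, 7.16, 8.23 and 16.9 FPKM in wild type and 5.07, 4.40, 6.83 and 7.02 FPKM in the labelled knockout (-0.73 ± 0.25, adjusted p = 0.221). Acat1 had 7.64, 7.26, 7.23 and 10.9 FPKM in wild type and 6.96, 6.36, 6.70 and 6.66 FPKM in the labelled knockout (-0.25 ± 0.14, adjusted p = 0.371). For Hadh and Acat1, wild-type library 8 was the highest of the 8.

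Other members were spread within the groups. Slc25a20 was 11.5, 16.5, 12.5 and 6.64 FPKM in wild type and 25.8, 23.7, 13.0 and 15.6 FPKM in the labelled knockout (0.69 ± 0.30, adjusted p = 0.289), with libraries 3 and 4 highest. Acaa1a was 17.3, 17.1, 22.3 and 18.4 FPKM in wild type and 31.6, 32.8, 23.2 and 20.4 FPKM in the labelled knockout (0.48 ± 0.18, adjusted p = 0.237), again with libraries 3 and 4 highest. Acadl went the other way within the labelled knockout, with 26.2 and 22.7 FPKM in libraries 3 and 4 and 41.8 and 45.0 FPKM in libraries 5 and 6, against 17.8 to 30.4 FPKM in wild type (0.35 ± 0.26, adjusted p = 0.498). Ppard was 4.47 to 6.01 FPKM in wild type and 5.16 to 8.76 FPKM in the labelled knockout (0.49 ± 0.17, adjusted p = 0.217). Pnpla2, lower in the labelled knockout in BMDM, was 10.2 to 23.3 FPKM in wild type and 8.76 to 20.1 FPKM in the labelled knockout (-0.25 ± 0.29, adjusted p = 0.674).

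**Figure D4:**
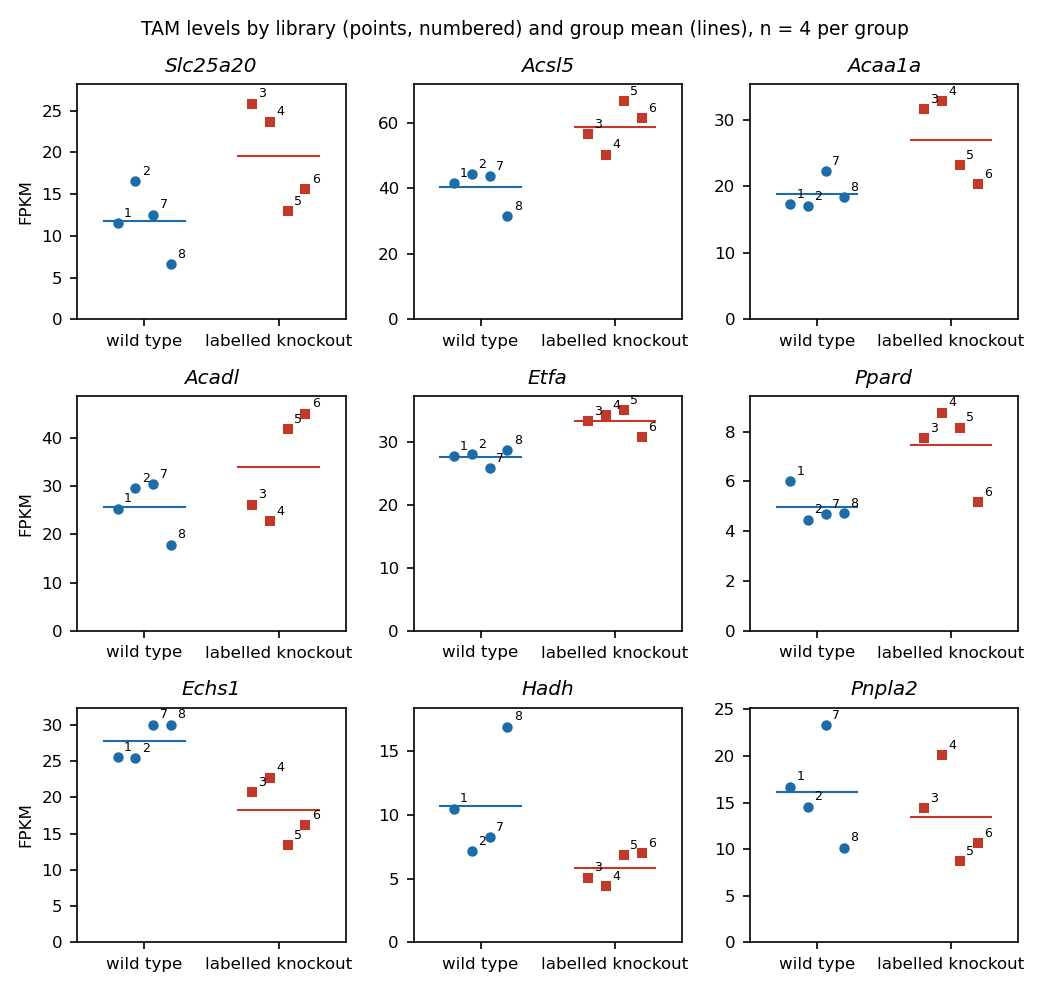
FPKM of 9 members in the 8 TAM libraries, with each library as a numbered point, wild type as circles, labelled knockout as squares, group means as lines and every y axis starting at 0. Acsl5 and Etfa do not overlap with the labelled knockout higher, Echs1 and Hadh do not overlap with it lower, and Slc25a20, Acaa1a and Acadl divide labelled knockout libraries 3 and 4 from 5 and 6.

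Markers of other cells varied between the TAM libraries. Summed neutrophil markers were 5534 to 17502 FPKM in libraries 1 to 4 and 865 to 1494 FPKM in libraries 5 to 8, and each of these sets holds 2 wild-type and 2 labelled knockout libraries. Summed fibroblast markers were 243 FPKM in wild-type library 8 and 9.11 to 27.8 FPKM in the others. Summed endothelial markers were 5.25 to 19.3 FPKM in wild type and 20.7 to 50.5 FPKM in the labelled knockout, and those of eosinophils, basophils and mast cells 2.61 to 18.8 FPKM and 0.463 to 1.73 FPKM. Adipocyte markers were all under 1 FPKM. The part of these cells in the TAM values was not tested.

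Genes around the pathway were followed in lists that did not use the direction of change. The lists were chosen with earlier results of these data known. At 24 h in wild type, 5 of 9 tested genes of fatty acid uptake and binding rose and 1 fell (55.6% and 11.1%, against 29.7% and 20.3% of all genes tested). Dbi, the acyl-CoA-binding protein, went from 86.2 ± 15.8 to 301 ± 10.5 FPKM (SD, n = 2), and Fabp4, a fatty acid-binding protein, from 71.1 ± 12.4 to 346 ± 42.7 FPKM. In the labelled knockout 5 rose and 1 fell (26.5% and 17.1% of all genes did), among them lipoprotein lipase Lpl, from 140 ± 11.2 to 488 ± 76.6 FPKM, and the fatty acid translocase Cd36, from 175 ± 3.13 to 507 ± 37.0 FPKM. Fabp4 was lower in the labelled knockout than in wild type at 24 h, at 183 ± 42.0 FPKM (-0.93 ± 0.18, adjusted p = 0.0149).

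Genes of malonyl-CoA and fatty acid synthesis, the opposing pathway whose product malonyl-CoA inhibits Cpt1a, rose in their majority. In wild type at 24 h 9 of 12 rose and none fell (75.0% rising, against 29.7% of all genes), and in the labelled knockout 8 rose and 1 fell (66.7% rising, against 26.5%). The desaturase Scd2 went from 1.51 ± 0.0386 to 18.9 ± 2.13 FPKM in wild type and from 2.01 ± 0.102 to 26.4 ± 0.133 FPKM in the labelled knockout, and was 0.47 ± 0.10 higher in the labelled knockout at 24 h (adjusted p = 0.0256). Acaca, which makes malonyl-CoA, went from 2.40 ± 0.106 to 5.88 ± 0.155 FPKM in wild type (1.02 ± 0.08, adjusted p = 5.61e-06).

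Of 29 further peroxisomal genes, 8 rose and 4 fell at 24 h in wild type, and 5 rose and 3 fell in the labelled knockout. These are 27.6% rising and 13.8% falling, against 29.7% and 20.3% of all genes, and 17.2% and 10.3%, against 26.5% and 17.1%, so the list did not exceed the background. Catalase (Cat) fell from 75.5 ± 0.470 to 38.9 ± 4.37 FPKM in wild type, while Abcd2, an importer of very long chain acyl-CoA, rose from 10.8 ± 1.66 to 20.1 ± 2.09 FPKM. Untreated Abcd2 was lower in the labelled knockout, at 6.80 ± 0.193 FPKM (-0.58 ± 0.11, adjusted p = 0.0226). Of 10 genes of lipid droplets and neutral lipid hydrolysis 2 rose and 1 fell in wild type (20.0% and 10.0%, below the background), Pnpla7 falling from 44.7 ± 7.75 to 24.9 ± 3.79 FPKM. Of 12 further carnitine and acyl-CoA genes 8 rose and 1 fell (66.7% rising), and of 6 genes of ketone body and odd-chain metabolism 2 rose (33.3%, near the background). Oxct1, which activates acetoacetate for use as fuel, went from 69.8 ± 11.8 to 180 ± 8.31 FPKM. Among 17 partners and targets of AMPK and PPARs 3 rose and 4 fell (17.6% and 23.5%), fewer rising and about as many falling as among all genes. The genes named here were those with the smallest p of this list. Pparg rose from 20.2 ± 2.37 to 59.6 ± 1.75 FPKM, the oestrogen-related receptor Esrra from 12.2 ± 1.92 to 26.8 ± 6.20 FPKM, and the PPAR target Angptl4 fell from 9.92 ± 1.32 to 3.54 ± 0.628 FPKM. No gene of these 7 lists passed between genotypes in TAM.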

How the data were processed

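RNA was sequenced from 12 BMDM libraries (6 groups of 2) and 8 TAM libraries (2 groups of 4). Per the labels' protocols, BMDM RNA was depleted of ribosomal RNA and TAM RNA was selected for polyadenylation. Per the submitters' processing notes, TopHat, Cuffdiff and the mouse build mm9 were used; versions and annotation are not given in the sources used here. The authors deposited one FPKM value per gene and library. The BMDM table names that unit and the TAM table names none, so FPKM there is taken from the processing notes. Depth is unknown, so no counting interval can be given.

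Values were fitted as log2(FPKM + 1) with limma 3.58.1 in R 4.3.3 (moderated variance with a trend on mean level), all BMDM groups in one fit (6 residual degrees of freedom) and TAM in another (6). Genes reaching 1 FPKM in at least 2 BMDM or 4 TAM libraries were tested, and p-values were adjusted over all of them. Of 2 entries of one symbol, the one with the higher mean was used. The fit was tested on simulated data. Tables and plots were made with Python 3.11.15, pandas 2.3.3, numpy 2.4.6 and matplotlib 3.10.9. Groups come from the labels, and numbers shared between BMDM groups were not taken as pairs.

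Members and gene lists were chosen with earlier results of these data known. All 35 members are accounted for. Values in every library are given for the up to 10 called members with the largest change per comparison and for others that help to read them. Of each list around the pathway, up to 3 called genes with the smallest p in a comparison are named. Adipoq was named after its values were seen. Alternatives were a pseudocount of 0.1 FPKM, no filter, 1 FPKM in every library, median-of-ratios scaling, quantile normalization, the replicate number as a block, a fit of only the libraries compared, and each library left out in turn.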

Additional observations from a re-analysis of the deposited data

Results flagged for a closer look

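In 2 of 67 groups of 4 TAM libraries examined, 1 library stood far from the other 3 by Dixon's criterion, which chance meets in about 5% of groups. Acat1, the acetoacetyl-CoA thiolase, had 10.9 FPKM in wild-type library 8, the highest of its group. Ppargc1a was highest in the labelled knockout at 0.00995 FPKM, too low to be read as expression.

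For 3 members of the hydratase, dehydrogenase and thiolase steps, the genotype groups did not overlap in TAM and at some times in BMDM. At those times the direction differed between BMDM and TAM. Among all genes, groups did not overlap for 42.5% to 51.6% in BMDM by time and 12.4% in TAM. In BMDM the sign was that of TAM for Echs1 at 24 h (-0.05), Hadh at 0 h (-0.03) and Acat1 at 10 h (-0.02). The BMDM groups overlapped there, as for Acat1 at 0 h (0.185). Echs1 was higher in the labelled knockout in BMDM, by 0.37 on the log2 scale at 0 h and 0.17 at 10 h, and its difference in TAM was -0.60. The 0 h value was 0.02 without untreated wild-type replicate 2 and 0.73 without replicate 1 (adjusted p = 0.00276), and wild-type replicate 1 at 34.8 FPKM lay just below the lower labelled knockout library at 34.9 FPKM. Hadh was higher in BMDM by 0.13 at 10 h and 0.17 at 24 h, with -0.73 in TAM. Its 24 h value was 0.09 without replicate 1 of either genotype. Acat1 was higher in BMDM by 0.39 at 24 h, with -0.25 in TAM and -0.13 there without wild-type library 8. With all libraries none of these values passed the threshold (limma), and the difference between BMDM and TAM was not tested.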

How the results depend on the processing

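None of the 90 called member differences changed sign under any alternative. Of them, 89 were kept with a pseudocount of 0.1, 79 without a filter, 87 after median-of-ratios scaling, 78 after quantile normalization and 86 with the replicate block. All 82 that could be tested at 1 FPKM in every library were kept, and 72 of 88 on only the libraries compared. Leaving out 1 library lost up to 12. Of 158 recomputed counts of called members, 130 stayed within 1.5 times.

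Other counts moved. From 10 to 24 h, the 8 of wild type became 14 after median-of-ratios scaling, 14 after quantile normalization and 5 on only the libraries compared, and the 5 of the labelled knockout became 8, 9 and 8. The labelled knockout count at 10 h, 14, became 22 on only the libraries compared. Between genotypes, the count of 0 at 24 h became 3 after median-of-ratios scaling and 4 after quantile normalization, that of 0 at 0 h became 1 after median-of-ratios scaling, and that of 1 over all times became 2 without a filter, 4 after median-of-ratios scaling and 5 after quantile normalization. The cause was not tested.

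With each library left out in turn, the counts ran from 11 to 23 for wild type at 10 h, 18 to 26 at 24 h and 4 to 10 between them. For the labelled knockout they ran from 9 to 10, 14 to 19 and 2 to 3. Between genotypes they ran from 0 to 10 at 0 h, 0 to 5 at 24 h, 1 to 8 over all times and 0 to 3 for the 24 h difference of responses. They were 0 throughout at 10 h, for the 10 h difference of responses and in TAM. An arm left with 1 library was assumed to vary like the other groups. The share of all genes that passed in these refits is not given here, so their counts are not a result about the members.

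The replicate numbers of the BMDM groups did not pair the libraries, with correlations of same-numbered deviations from -0.141 to 0.149 and 5 of 15 over 0.1. With the replicate block, 1 member passed between genotypes at 0 h (Pnpla2, lower in the labelled knockout), and the other counts stayed within 1.5 times. TAM groups share no numbers, so no block was fitted there.

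The tables hold no counts, so the depth behind each value is unknown, and members such as Ehhadh, Ppara and Ppargc1a were too low for a test.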
